A study of Mus musculus with 23 samples.

Results

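The comparison covered 11 of the 23 bulk RNA sequencing libraries of the study. It set 5 libraries of organoids grown for 13 days in floating collagen I gels (bulk3D13D) against 6 libraries of the same tumor cells in two-dimensional culture (9591-2D). All 11 were in batch 1 and came from the cells of a single mouse (mouse 9591) of genotype KC, which carries Ptf1a Cre/+, a Cre recombinase expressed from a pancreatic gene, and an allele that it switches on. Both groups therefore share these alleles, and neither is a healthy control. The cells are one primary tumor line, so that p-values measure the spread between these libraries and not between animals. The 2D cells went straight into lysis buffer, while the organoids were first freed from their gel with collagenase at 37 °C, so that growth in the gel, its duration and this digestion cannot be told apart here. Each library covers the 3' ends of mRNA, and each count is one UMI (unique molecular identifier), that is, one captured RNA molecule. Levels are given in CPM, counts relative to the library total after scaling with edgeR's TMM factors, as mean ± SD, with n = 6 for 2D, n = 5 for day 13 and n = 3 for either of the 2 sets that the 2D libraries formed. Fold changes are log2 values of day 13 minus 2D, ± SE, and a gene was called when its adjusted p-value in edgeR's quasi-likelihood test was under 0.1.

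Pancreatic ductal adenocarcinoma arises in the exocrine pancreas, and its early, well differentiated lesions often take up a program of the stomach surface and the gut, with gastrokines, trefoil factors and mucins. Cells spread on a plastic dish lack much of the apical and basal organization of an epithelium. In a floating collagen gel single cells of this kind grow within 13 days into branched structures that open a lumen lined by polarized cells. The comparison asks how the mature structure differs in its transcripts from the cells that were seeded.

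The 2D libraries fell into 2 sets along their replicate numbers. Replicates 1 to 3 (14A to 14C) had 1221451 to 1382736 counts, and replicates 4 to 6 (14D to 14F) had 1649327 to 2091391 counts. The day 13 libraries had 1844157 to 2097989 counts, so that a count of 0 allows up to 1.335 to 1.568 CPM there and up to 1.362 to 3.203 CPM in 2D. Genes of ribosomal proteins took 21.82% to 22.74% of the counts in 2D replicates 1 to 3, 12.09% to 13.16% in replicates 4 to 6 and 7.374% to 9.587% at day 13. Mitochondrially encoded genes took 4.993% to 5.755%, 2.51% to 3.013% and 3.008% to 4.831%. The labels do not say what the 2 sets are, and the part of depth or of these shares in the results was not tested. Over the 500 most variable genes of the 2D, day 7 and day 13 libraries, the mean distance was 34.71 between the 2D sets, 49.04 from replicates 1 to 3 to day 13 and 35.95 from replicates 4 to 6 to day 13, against 11.36 to 15.64 within the sets and within day 13 (Euclidean distance in log2 CPM). Values are therefore given against each set wherever the sets lie apart, that is, where their values do not overlap and their means differ at least 1.5-fold.

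**Figure D1:**
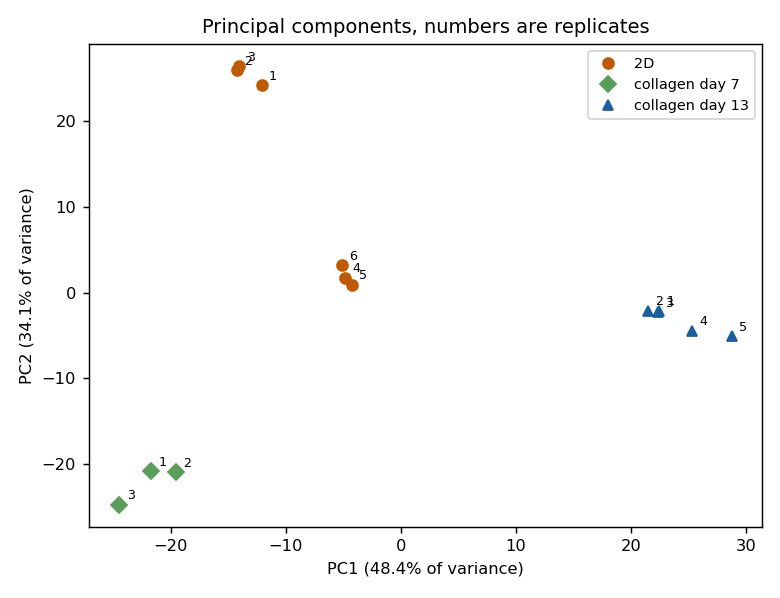
Scores of 14 libraries on the first (x axis) and second (y axis) principal component of log2 CPM, with 2D as circles, collagen day 7 as diamonds and collagen day 13 as triangles, numbered by replicate. Day 13 lies at the right, and the 2D libraries form 2 clusters, replicates 1 to 3 above replicates 4 to 6.

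Of 11144 genes tested, 5526 were called, 2592 higher at day 13 (23.3% of the genes tested) and 2934 lower (26.3%). The counts of list members below are to be read beside these shares. At least 2-fold were 617 of the higher and 754 of the lower genes, at least 4-fold 156 and 106. When counts were scaled by library size alone the split moved to 3613 higher and 1692 lower, 68.11% of the calls higher in place of 46.91%, and the median over all genes moved from -0.01 to 0.20. All 5 day 13 libraries lay above all 6 2D libraries in 1154 genes (10.4%) and below them in 1111 (9.97%). Against 2D replicates 1 to 3 alone 28.1% of the genes tested were called higher and 26.8% lower, and against replicates 4 to 6 alone 20.3% and 18.9%. Of the 5526 calls, 3680 were kept with their direction against replicates 4 to 6 alone, and 13 were then called in the opposite direction. In 1870 of the called genes the 2D sets lay apart.

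In the 6 genes chosen to stand for the comparison the 2D sets did not lie apart and the 2 groups did not overlap. Clca1, a secreted protein of mucous cells (chr3:145003817-145032776, GRCm38), was at 496, 511 and 485 CPM in 2D replicates 1 to 3, 536, 621 and 547 CPM in 2D replicates 4 to 6 and 3587, 3394, 3823, 3729.7 and 4077 CPM in day 13 replicates 1 to 5. It was about 7 times as high in the organoids (log2 fold change 2.803 ± 0.12, edgeR adjusted p = 1.06e-14). Car2, the carbonic anhydrase that supplies bicarbonate to duct fluid (chr3:14886273-14900770), was at 108, 93.1 and 90.7 CPM in 2D replicates 1 to 3, 73.1, 77.8 and 80.1 CPM in 2D replicates 4 to 6 and 501, 617, 600.1, 638 and 700.3 CPM in day 13 replicates 1 to 5. Its increase was of the same size (log2 fold change 2.82 ± 0.13, edgeR adjusted p = 2.36e-14). Gpa33, a surface antigen of the intestinal epithelium (chr1:166130238-166166510), was at 42.96, 37.8 and 37.5 CPM in 2D replicates 1 to 3, 36.99, 28.3 and 35.9 CPM in 2D replicates 4 to 6 and 241, 209.6, 235, 255 and 328 CPM in day 13 replicates 1 to 5. The lowest organoid library was well above the highest 2D library (log2 fold change 2.81 ± 0.13, edgeR adjusted p = 2.36e-14).

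Cyp2c65, a cytochrome P450 of the gut (chr19:39061015-39093944), was at 206, 181 and 191 CPM in 2D replicates 1 to 3, 209, 209 and 217 CPM in 2D replicates 4 to 6 and 747, 717, 761, 1169 and 1167 CPM in day 13 replicates 1 to 5. Day 13 replicates 4 and 5 stood above replicates 1 to 3, and all 5 stood above 2D (log2 fold change 2.17 ± 0.14, edgeR adjusted p = 2.94e-11). Btg2, an antiproliferative gene induced by p53 and by growth stimuli (chr1:134075170-134079120), was at 131, 124 and 114 CPM in 2D replicates 1 to 3, 135, 111 and 107 CPM in 2D replicates 4 to 6 and 521, 551, 569.9, 527 and 477 CPM in day 13 replicates 1 to 5. These are 2 tight groups, and the increase was 2.14 ± 0.09 (edgeR adjusted p = 1.06e-14). Prxl2a, a protein of the peroxiredoxin-like family, was at 764, 801 and 792 CPM in 2D replicates 1 to 3, 718, 679.8 and 732 CPM in 2D replicates 4 to 6 and 189, 180.3, 165, 231 and 219 CPM in day 13 replicates 1 to 5. It was the one of the 6 to fall (log2 fold change -1.92 ± 0.10, edgeR adjusted p = 1.71e-13).

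The same cells at day 7 in collagen, when the structures still extend, and a second batch of day 13 organoids were measured beside these groups and share the 2D libraries with them. Btg2 was at 128 ± 10.5 CPM at day 7 and at 593 ± 57.2 CPM in the second batch of day 13 (SD, n = 3 each). Clca1 was at 219.9 ± 50.7 and 3239 ± 229 CPM, Car2 at 65.7 ± 16.3 and 841 ± 6.696 CPM, Gpa33 at 21.9 ± 3.33 and 287 ± 20.6 CPM and Cyp2c65 at 136 ± 10.8 and 742 ± 94.3 CPM. At day 7 these levels lay near or under those of 2D. Prxl2a was at 146 ± 9.73 CPM at day 7 and at 302 ± 20.6 CPM in the second batch, both far under 2D.

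**Figure D2:**
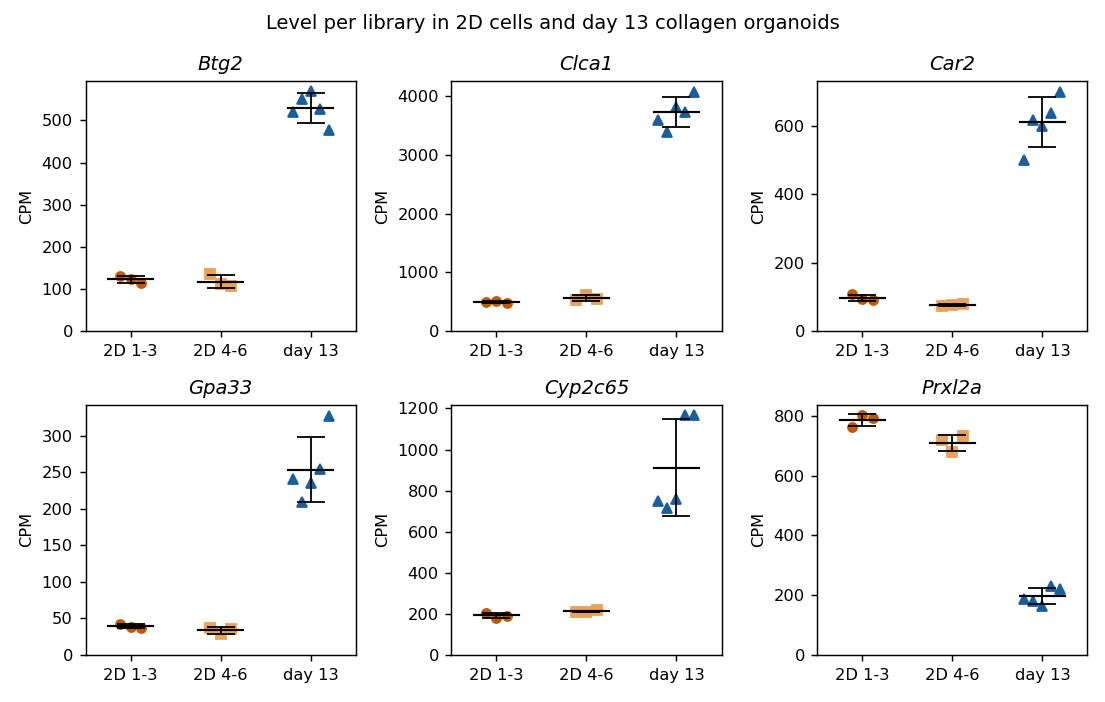
CPM (y axis, linear, from 0) of 6 genes in each library of 2D replicates 1 to 3 (circles), 2D replicates 4 to 6 (squares) and day 13 in collagen (triangles), with mean and SD. Clca1 rises from 533 to 3722 CPM on average, Prxl2a falls from 748 to 197 CPM, and in no panel do 2D and day 13 overlap.

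Secreted products of the gastric surface and of mucous cells had the largest gains in level. Of the 20 tested genes of goblet and other secretory cells 14 were higher and 1 was lower, with a median log2 fold change of 1.47 against -0.01 over all genes, against all 6 2D libraries. It was 12 higher and 4 lower against 2D replicates 1 to 3 (median 1.19) and 16 higher and 1 lower against replicates 4 to 6 (median 2.06). When only the 2 groups were fitted 8 members were higher, and with at least 10 counts in every library 6, and both fits tested fewer genes. The lower member was Ltf, at 5.01 CPM in 2D and 1.68 CPM at day 13 (edgeR adjusted p = 0.00737). Tff2 was not called, at 2415 CPM in 2D and 2504 CPM at day 13 (edgeR adjusted p = 0.881). Its change was -0.47 against replicates 1 to 3 and 0.86 against replicates 4 to 6. Spink4 was not called either (edgeR adjusted p = 0.466), with changes of -0.36 and 1.16. The 5 genes with the largest gain in CPM among all genes called were Gkn2, Tff1, Lgals2, Gkn1 and Clca1. Gkn1 and Gkn2 are gastrokines, proteins of the stomach's surface mucus. Gkn1 was at 565, 507 and 530.4 CPM in 2D replicates 1 to 3, 259.8, 202 and 273 CPM in 2D replicates 4 to 6 and 2594, 3217, 2988, 4044 and 5136 CPM in day 13 replicates 1 to 5, with 2D replicates 1 to 3 above replicates 4 to 6. It rose from 534 ± 28.97 CPM in 2D replicates 1 to 3 and 245 ± 38.04 CPM in replicates 4 to 6 to 3596 ± 1011 CPM at day 13 (log2 fold change 3.22 ± 0.24, edgeR adjusted p = 1.37e-10). Gkn2 was at 2022, 1789 and 1919 CPM in 2D replicates 1 to 3, 935, 775 and 977 CPM in 2D replicates 4 to 6 and 6080.5, 6443, 7345, 7947 and 9237 CPM in day 13 replicates 1 to 5. It had the largest gain in level of any called gene (log2 fold change 2.404 ± 0.21, edgeR adjusted p = 3.57e-09). Tff1, the trefoil peptide of gastric pit cells, rose from 2400.3 ± 265 to 7852 ± 1669 CPM (log2 fold change 1.71 ± 0.14, edgeR adjusted p = 4.65e-10). Lgals2, a galactose-binding lectin, rose from 2116 ± 288 to 6541 ± 485 CPM (log2 fold change 1.63 ± 0.11, edgeR adjusted p = 6.22e-11).

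Muc5ac, the gel-forming mucin of the gastric surface, was at 187, 179 and 182 CPM in 2D replicates 1 to 3, 105, 97.5 and 102 CPM in 2D replicates 4 to 6 and 873, 702, 934, 1388 and 1741 CPM in day 13 replicates 1 to 5. It rose by 3.01 ± 0.22, and day 13 replicates 4 and 5 were the highest. Mucl3, a mucin-like protein, rose from 92.8 ± 11.2 CPM in 2D replicates 1 to 3 and 47.5 ± 5.41 CPM in replicates 4 to 6 to 831 ± 375 CPM at day 13 (log2 fold change 3.61 ± 0.25, edgeR adjusted p = 5.02e-11). In the second batch of day 13 Mucl3 reached 3102 ± 479.9 CPM and Gkn1 9667 ± 249 CPM, while at day 7 they were at 45.1 ± 4.86 and 239.8 ± 68.2 CPM. Pigr, the receptor that carries immunoglobulins across epithelia, rose from 6.98 ± 2.79 CPM in 2D replicates 1 to 3 and 3.33 ± 0.463 CPM in replicates 4 to 6 to 21.6 ± 3.48 CPM at day 13. Muc3 and Muc3a, names for transmembrane mucins of the gut between which reads may be split, rose by 3.69 ± 0.34 and 3.29 ± 0.38, and their separate values are uncertain. Muc3a rose from 3.71 ± 0.685 CPM in 2D replicates 1 to 3 and 1.39 ± 1.37 CPM in replicates 4 to 6 to 22.5 ± 5.601 CPM at day 13, by 2.57 and 3.89 on the log2 scale against the 2 sets.

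**Figure D3:**
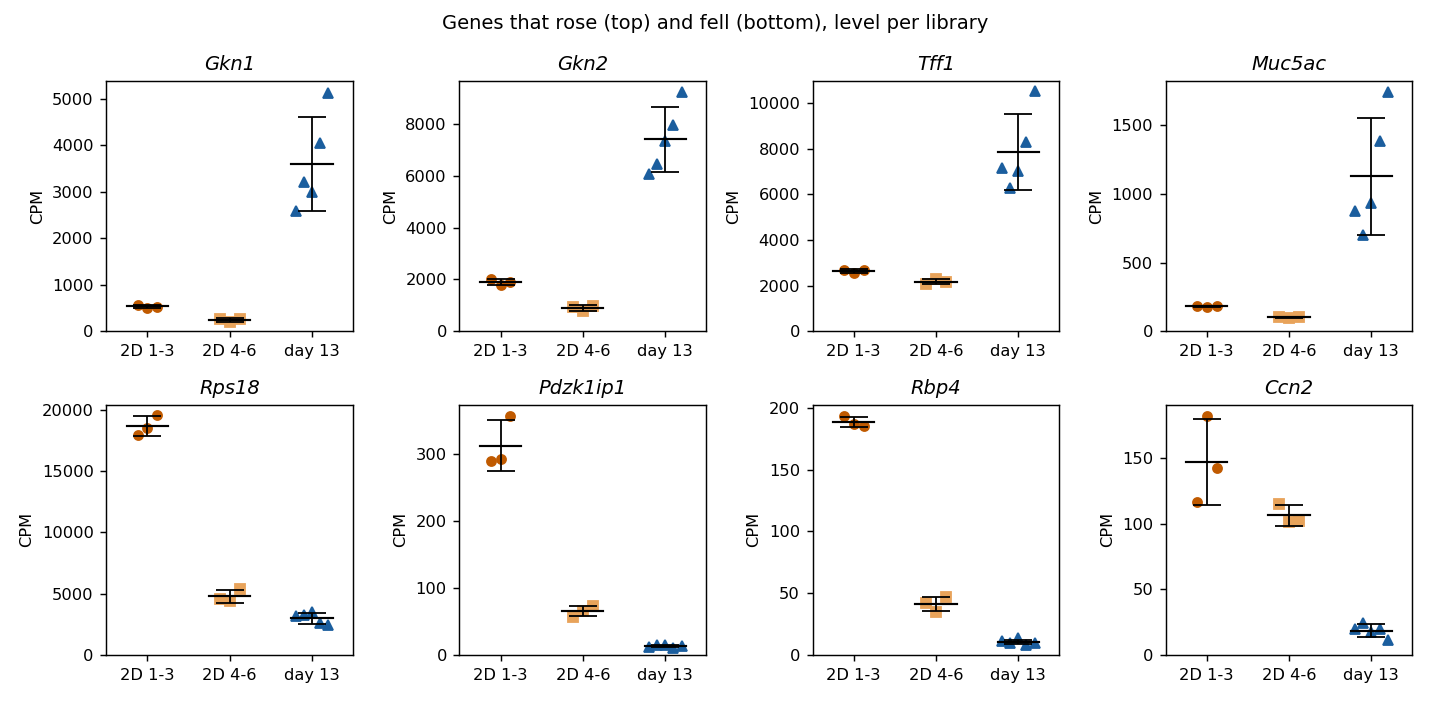
CPM (y axis, linear, from 0) of 4 genes that rose (top) and 4 that fell (bottom) in each library of 2D replicates 1 to 3 (circles), 2D replicates 4 to 6 (squares) and day 13 (triangles), with mean and SD. Gkn1 and Gkn2 rise against either 2D set, while most of the fall of Rps18, Pdzk1ip1 and Rbp4 is against 2D replicates 1 to 3.

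Genes of the brush border, the layer of microvilli on the apical side of an absorptive cell, rose almost as a whole. Of 21 tested members 19 were higher and 0 lower, with a median of 1.73. Against 2D replicates 4 to 6 all 21 were higher (median 1.496). By edgeR 0 members were lower also at an unadjusted p under 0.05, and by DESeq2 0. Alpi, the intestinal alkaline phosphatase, was at 0.589, 1.96 and 7.52 CPM (lowest, median and highest) in 2D and at 23.2, 18.7, 18.2, 38.5 and 36.8 CPM in the organoids. It was near the detection limit in 2D, and its increase was 3.48 ± 0.40 (edgeR adjusted p = 2.61e-07). Cdhr5, a protocadherin that links neighbouring microvilli, rose from 4.99 ± 1.41 to 34.1 ± 4.41 CPM (2.67 ± 0.27). Myo1a, the myosin that ties the microvillus core to its membrane, rose from 6.98 ± 3.14 to 40.03 ± 3.17 CPM (2.54 ± 0.23). Krt20, the keratin of differentiated gut and gastric surface cells, rose from 260.5 ± 56.98 to 887 ± 117 CPM (1.76 ± 0.13). Also higher were the intestinal transcription factors Cdx2, Hnf4a, Hnf4g and Isx, the fatty acid binding proteins Fabp1 and Fabp2, and Vil1 and Cdh17. The second batch of day 13 did not show this for Isx, Fabp1 and Cdx2. Their means there were 4.30, 18.5 and 29.7 CPM, against 5.95, 34.4 and 29.2 CPM in 2D. Hnf4a, Hnf4g, Fabp2, Vil1 and Cdh17 were above their 2D means in that batch. At day 7 Cdh17 was at 469 CPM and Cdx2 at 64.5 CPM, above their day 13 means of 321 and 60.4 CPM. Hnf4a was at 92.7 CPM at day 7, between 56.2 CPM in 2D and 115 CPM at day 13. Hnf4g, Isx, Fabp1, Fabp2 and Vil1 were under their 2D means at day 7.

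Other genes among the 10 largest increases were also epithelial. Ildr1, a protein of junctions where 3 cells meet, rose from 2.23 ± 1.47 to 23.4 ± 6.75 CPM (3.48 ± 0.35), although it was at 4.97 ± 2.57 CPM in the second batch of day 13. Cybrd1, the ferric reductase of the duodenal brush border, rose from 3.18 ± 0.947 to 29.6 ± 13.99 CPM (3.25 ± 0.32). Lypd8, which keeps bacteria away from the colonic surface, rose from 3.55 ± 1.77 to 34.4 ± 11.4 CPM (3.25 ± 0.33). The 3 genes had under 10 CPM in 2D.

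Genes of drug metabolism were more often higher than lower. Of 34 tested cytochromes P450, carboxylesterases and conjugating enzymes, 20 were higher and 6 lower, with a median of 0.68. Cyp2c55 had the largest increase of all genes that met the naming rule, 3.81 ± 0.56 (edgeR adjusted p = 7.58e-06). Its organoid libraries were far apart, at 38.5, 31.2, 25.4, 247 and 189 CPM, against 9.67, 11.6 and 8.87 CPM in 2D replicates 1 to 3 and 5.94, 5.28 and 7.07 CPM in replicates 4 to 6. Replicates 4 and 5 carried most of this increase, with a mean of 218 CPM against 31.7 CPM in replicates 1 to 3, and the second batch was at 15.1 ± 3.45 CPM. Ces2a, an intestinal carboxylesterase, showed the same split, at 31.5, 50.4, 33.5, 217 and 209.6 CPM in the organoids, against 16.1, 13.6 and 15.8 CPM in 2D replicates 1 to 3 and 6.39, 8.16 and 5.89 CPM in replicates 4 to 6. Its increase was 2.82 against the first set and 4.001 against the other (3.44 ± 0.48 over both). Cyp2s1, an extrahepatic P450, was steadier, rising from 86.4 ± 4.699 to 507 ± 89.2 CPM (log2 fold change 2.55 ± 0.11, edgeR adjusted p = 1.16e-14). Cyp4f14, an omega-hydroxylase of fatty acids, rose from 15.9 ± 3.897 to 92.8 ± 10.2 CPM (2.62 ± 0.18). The glutathione transferases moved in both directions, with Gsta1, Gsta2, Gsta4, Gsto1 and Mgst3 called higher and Gsta3, Gstm1, Gstm5, Mgst1 and Mgst2 lower. The other lower member was Cyp4b1.

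Of 39 genes of fatty acid handling 18 were higher and 6 lower (median 0.22). Cpt1a, which admits fatty acids to mitochondria, rose from 42.03 ± 9.303 to 88.1 ± 28.8 CPM (1.03 ± 0.17). Acot1, a thioesterase, fell from 20.1 ± 5.08 to 9.93 ± 4.82 CPM, and its groups overlapped (log2 fold change -1.003 ± 0.27, edgeR adjusted p = 0.00416). Of 27 retinoid and aldehyde dehydrogenase genes 11 were higher and 7 lower (median 0.19). Rbp2, the retinol carrier of absorptive cells, rose from 26.2 ± 4.72 to 77.7 ± 9.64 CPM (1.58 ± 0.16). Aldh1a1, a maker of retinoic acid, rose from 12.02 ± 2.08 CPM in 2D replicates 1 to 3 and 5.14 ± 3.25 CPM in replicates 4 to 6 to 29.05 ± 7.24 CPM at day 13. Aldh3a2, a fatty aldehyde dehydrogenase, rose from 75.01 ± 5.47 to 196 ± 45.5 CPM (1.38 ± 0.13).

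Among 34 genes of NRF2 and thiol redox control, 12 were higher and 9 lower (median 0.02). Abcc3, an exporter of conjugates, rose from 56.9 ± 6.73 to 147 ± 36.6 CPM (1.38 ± 0.14). Nqo1, the quinone reductase by which NRF2 activity is often read, rose from 14.1 ± 4.26 to 31.5 ± 3.93 CPM. In the second batch of day 13 it was at 14.2 ± 2.75 CPM, near the 2D mean. Gpx4, which removes lipid peroxides, fell from 988 ± 199.5 CPM in 2D replicates 1 to 3 and 283 ± 12.4 CPM in replicates 4 to 6 to 249.9 ± 11.3 CPM at day 13. Against replicates 4 to 6 alone its change was -0.15 (edgeR adjusted p = 0.346) and was not called.

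Genes of fluid transport, which fills a lumen, moved in both directions. Over all tested genes 23.3% were called higher and 26.3% lower. Of 31 tested channels, carriers and carbonic anhydrases 10 were higher and 7 lower (median 0.03), not far from these shares. The balance depended on the 2D set, with 14 higher and 5 lower against replicates 1 to 3 (median 0.40) and 7 higher and 9 lower against replicates 4 to 6 (median 0.01). Beside Car2, Slc26a6, an apical chloride and bicarbonate exchanger, rose from 2.61 ± 1.04 to 23.7 ± 5.64 CPM (log2 fold change 3.11 ± 0.25, edgeR adjusted p = 7.33e-10). Slc9a2, a sodium and proton exchanger, rose from 21.1 ± 6.32 to 87.96 ± 20.7 CPM (2.04 ± 0.17). Aqp5, a water channel of glands, went the other way, from 42.2 ± 4.52 CPM in 2D replicates 1 to 3 and 93.4 ± 4.38 CPM in replicates 4 to 6 to 18.1 ± 6.08 CPM at day 13 (log2 fold change -1.95 ± 0.26, edgeR adjusted p = 1.67e-06). The basolateral carriers Slc12a2 and Slc4a4 and the potassium channel Kcnq1 were also among the 7 lower members. Slc12a2 changed by -0.96 on the log2 scale against replicates 4 to 6 but by -0.0018 against replicates 1 to 3. In the second batch of day 13 Slc4a4 was at 40.1 CPM, above its 2D mean of 33.05 CPM. Kcnq1 was near the threshold (edgeR adjusted p = 0.0965). The groups of Slc12a2 and of Kcnq1 overlapped. The chloride channel Cftr was not called (edgeR adjusted p = 0.393).

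Genes that build an epithelial sheet were mostly higher. Of 37 tested genes of junctions and polarity 24 were higher and 2 lower, with a median of 0.59 (25 higher and 3 lower against 2D replicates 1 to 3, and 22 and 3 against replicates 4 to 6). Epcam, an adhesion protein of simple epithelia, was at 22.6, 29.1 and 23.7 CPM in 2D replicates 1 to 3, 17.4, 14.4 and 14.7 CPM in 2D replicates 4 to 6 and 45.9, 48.9, 45.5, 65.4 and 75.1 CPM in day 13 replicates 1 to 5. All 5 organoid libraries were above all 2D libraries (log2 fold change 1.53 ± 0.19, edgeR adjusted p = 6.31e-07), and at day 7 the level was 5.87 ± 1.73 CPM. Cdh1, E-cadherin of the adherens junction, was at 133, 123 and 109 CPM in 2D replicates 1 to 3, 135, 160.4 and 180.2 CPM in 2D replicates 4 to 6 and 205, 191, 199, 253 and 267 CPM in day 13 replicates 1 to 5. Its increase was modest, 0.66 ± 0.12 (edgeR adjusted p = 1.40e-04). Dsg2 and Dsc2 are desmosomal cadherins. Dsg2 rose from 15.6 ± 3.51 to 65.2 ± 40.2 CPM and reached 109 CPM on average in day 13 replicates 4 and 5 against 36.1 CPM in replicates 1 to 3. Dsc2 rose from 5.33 ± 3.12 to 20.9 ± 10.5 CPM. Pkp3, a plakophilin of the same junction, rose from 10.1 ± 2.01 to 33.5 ± 6.996 CPM (1.68 ± 0.20). Spint1, an inhibitor of membrane serine proteases, rose from 9.09 ± 0.504 CPM in 2D replicates 1 to 3 and 4.72 ± 0.775 CPM in replicates 4 to 6 to 27.6 ± 5.09 CPM at day 13. The 2 members that fell were the claudins Cldn2 and Cldn6.

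Keratins, the filaments of epithelial cells, moved in both directions, 4 higher and 3 lower of 9. Krt19, a ductal keratin, was at 1927, 1869 and 1889 CPM in 2D replicates 1 to 3, 2823, 2951 and 2627 CPM in 2D replicates 4 to 6 and 4265, 3471, 3950.4, 3314 and 4208 CPM in day 13 replicates 1 to 5. It rose by 0.71 ± 0.13 (edgeR adjusted p = 8.09e-05). Krt8 rose from 1015 ± 26.9 CPM in 2D replicates 1 to 3 and 1598 ± 68.5 CPM in replicates 4 to 6 to 2209 ± 206 CPM at day 13. Krt7, another ductal keratin, fell by 0.58 on the log2 scale (edgeR adjusted p = 9.72e-04), from 1354 ± 46.2 CPM in 2D replicates 1 to 3 and 2048 ± 36.4 CPM in replicates 4 to 6 to 1138 ± 123 CPM. Over the 12 ductal epithelial markers 5 were higher and 3 lower, and their summed level was 22717 to 24622 CPM in the 2D libraries and 19208 to 21435 CPM at day 13. The most abundant of them, Spp1, fell from 14333 ± 1295 to 8833 ± 756 CPM (-0.698 ± 0.11). All 12 were detected in each of the 11 libraries.

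Transcription factors of the endoderm and the duct were mostly higher, 18 higher and 3 lower of 27, with a median of 0.66 (21 and 3 against 2D replicates 1 to 3, median 1.09, and 16 and 5 against replicates 4 to 6, median 0.46). Klf4, a factor of differentiating surface epithelia, rose from 152 ± 15.3 to 534 ± 101 CPM (log2 fold change 1.81 ± 0.12, edgeR adjusted p = 3.98e-11). Elf3, an epithelial ETS factor, rose from 72.5 ± 8.97 CPM in 2D replicates 1 to 3 and 175 ± 22.05 CPM in replicates 4 to 6 to 335 ± 71.7 CPM at day 13. Foxa3, a forkhead factor of the endoderm, rose from 11.7 ± 4.39 CPM in 2D replicates 1 to 3 and 6.19 ± 2.56 CPM in replicates 4 to 6 to 25.7 ± 9.89 CPM at day 13, with overlap between the groups. Pparg, a nuclear receptor of lipid metabolism, rose from 86.03 ± 1.94 CPM in 2D replicates 1 to 3 and 134 ± 0.466 CPM in replicates 4 to 6 to 244 ± 29.5 CPM at day 13. Pdx1, Gata4, Gata6, Onecut1 and Klf5 were also higher, and Foxa1, Sox4 and Hmga2 lower.

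Mesenchymal genes were more often lower, 21 of 38 against 7 higher (median -0.58), but this depended on the 2D set. Against replicates 1 to 3 it was 26 lower and 5 higher (median -0.83), and against replicates 4 to 6 11 lower and 5 higher, with a median of -0.02. When library totals alone set the scale, 12 were lower and 9 higher. Vim, the intermediate filament of mesenchymal cells, was at 1386, 1399 and 1489 CPM in 2D replicates 1 to 3, 1247, 1239 and 1224 CPM in 2D replicates 4 to 6 and 903, 886, 814, 899 and 658 CPM in day 13 replicates 1 to 5. It fell by 0.68 on the log2 scale (edgeR adjusted p = 8.04e-06), and at day 7 it was at 3183 ± 283 CPM, above either group. Thbs1, thrombospondin, fell from 34.4 ± 12.5 CPM in 2D replicates 1 to 3 and 21.1 ± 2.402 CPM in replicates 4 to 6 to 6.15 ± 3.04 CPM at day 13. Lgals1, a lectin of mesenchymal cells, fell from 5022 ± 132 CPM in 2D replicates 1 to 3 and 3185 ± 135 CPM in replicates 4 to 6 to 1925 ± 211 CPM at day 13. Timp1, an inhibitor of matrix proteases, fell from 173 ± 9.57 CPM in 2D replicates 1 to 3 and 99.5 ± 14.9 CPM in replicates 4 to 6 to 66.4 ± 15.1 CPM at day 13, and its groups overlapped.

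Matrix and adhesion genes did not move in one direction. Of 29 matrix genes 5 were higher and 6 lower (median -0.04). Lamb3, a chain of laminin 332, rose from 13.4 ± 6.75 to 45.5 ± 19.9 CPM (1.84 ± 0.28). P4ha2, which hydroxylates collagen chains, rose from 35.4 ± 5.08 to 66.4 ± 18.8 CPM, and its groups overlapped. Serpinh1, the collagen chaperone, fell from 211 ± 6.12 CPM in 2D replicates 1 to 3 and 102 ± 12.7 CPM in replicates 4 to 6 to 71.2 ± 12.1 CPM at day 13. Bgn, a small proteoglycan, fell from 37.3 ± 13.4 CPM in 2D replicates 1 to 3 and 14.7 ± 2.86 CPM in replicates 4 to 6 to 12.9 ± 3.23 CPM at day 13, and its change against replicates 4 to 6 alone was -0.14 (edgeR adjusted p = 0.687). Of 30 integrin and focal adhesion genes 9 were higher and 7 lower (median 0.03). Itgb4, the integrin of hemidesmosomes, rose from 86.02 ± 13.8 to 175 ± 18.1 CPM (1.01 ± 0.14). Fermt1, the epithelial kindlin, rose from 114 ± 1.8002 CPM in 2D replicates 1 to 3 and 238 ± 7.97 CPM in replicates 4 to 6 to 334 ± 29.9 CPM at day 13. Itga2, a chain of a collagen receptor, fell from 47.4 ± 9.52 to 28.5 ± 2.52 CPM (-0.77 ± 0.15), and it was at 73.5 ± 10.7 CPM in the second batch of day 13, above 2D, so that the 8 day 13 libraries of both batches gave -0.12 (edgeR adjusted p = 0.711).

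Of 22 proteases and inhibitors 6 were higher and 7 lower (median -0.07). Serpinb5, maspin, rose from 15.2 ± 4.99 to 43.8 ± 7.92 CPM (1.598 ± 0.17). Mmp15, a membrane-type metalloproteinase, rose from 22.5 ± 5.29 to 63.4 ± 17.4 CPM (1.44 ± 0.17). Plat, tissue plasminogen activator, fell from 84.8 ± 10.6 to 38.6 ± 3.78 CPM (-1.12 ± 0.13). Of 41 genes of the actomyosin cortex and its regulators 14 were higher and 11 lower (median -0.01). Myh14, a non-muscle myosin of epithelia, rose from 17.5 ± 2.57 to 74.6 ± 21.2 CPM (log2 fold change 2.08 ± 0.16, edgeR adjusted p = 3.83e-10). Diaph1, a formin, rose from 22.3 ± 1.95 to 45.3 ± 9.85 CPM. The Cdc42 effectors went apart, Cdc42ep2 rising by 0.94 ± 0.14 and Cdc42ep1 changing by -0.94 ± 0.14. Cdc42ep2 rose from 49.95 ± 3.55 CPM in 2D replicates 1 to 3 and 81.6 ± 15.5 CPM in replicates 4 to 6 to 130.1 ± 17.3 CPM at day 13. The groups of Cdc42ep1 overlapped.

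**Figure D4:**
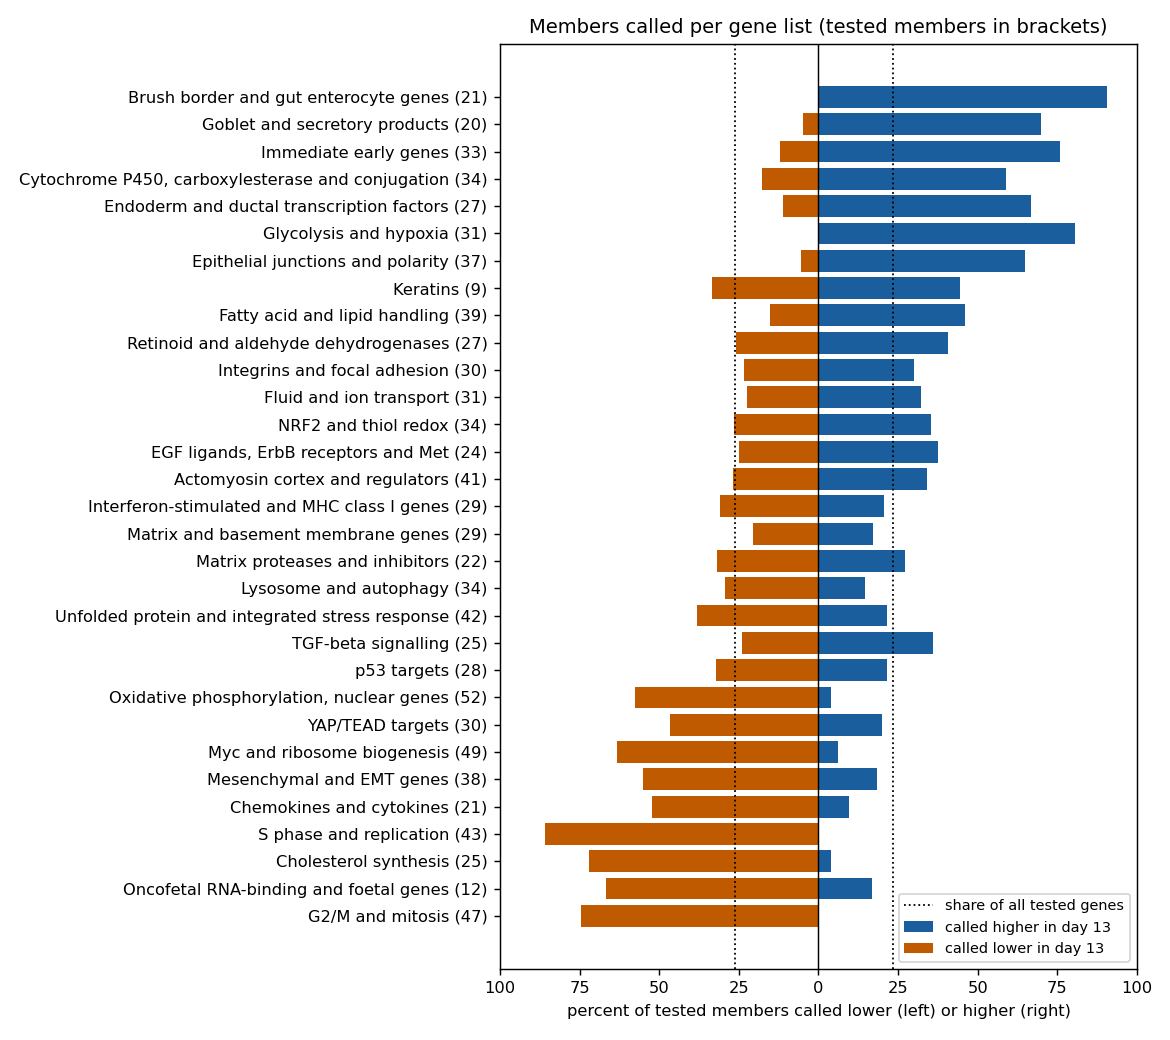
Percent of the tested members of 31 gene lists that were called lower (left, orange) or higher (right, blue) at day 13, ordered by the median log2 fold change, with the number tested in brackets. The dotted lines mark the share of all tested genes, 23.3% higher and 26.3% lower. Brush border genes (19 of 21 higher) and S phase genes (37 of 43 lower) lie near the ends.

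The promoters shown next belong to genes of 3 regulated groups, hypoxia, the YAP/TEAD pathway and cholesterol synthesis, and were chosen because each holds a short motif known for its group. Each runs from 250 bases before to 50 bases after the gene's start, 300 bases, read 5' to 3' on the gene's strand from RefSeq on GRCm38.p6. The motif stands in capitals, and both strands were searched, so that ACGTG can appear as CACGT. The letters ACGTG are also part of the E box CACGTG.
Car9 (chr4:43506776-43507075, plus strand, motif starting at position -18): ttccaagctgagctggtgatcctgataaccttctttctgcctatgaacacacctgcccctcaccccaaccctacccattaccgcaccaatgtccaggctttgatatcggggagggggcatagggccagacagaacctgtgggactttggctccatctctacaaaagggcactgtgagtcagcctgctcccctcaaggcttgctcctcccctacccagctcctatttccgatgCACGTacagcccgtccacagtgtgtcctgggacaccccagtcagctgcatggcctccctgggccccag
Ankrd37 (chr8:45999801-46000100, minus strand, motifs starting at -241 and -6): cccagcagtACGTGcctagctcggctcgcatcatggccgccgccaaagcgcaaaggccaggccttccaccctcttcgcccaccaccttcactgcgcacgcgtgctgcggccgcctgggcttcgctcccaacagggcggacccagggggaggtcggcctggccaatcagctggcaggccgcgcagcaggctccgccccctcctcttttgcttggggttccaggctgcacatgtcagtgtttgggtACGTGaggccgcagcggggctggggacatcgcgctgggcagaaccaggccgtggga
Ankrd1 (chr19:36119795-36120094, minus strand, GGAATG starting at -210 and -123): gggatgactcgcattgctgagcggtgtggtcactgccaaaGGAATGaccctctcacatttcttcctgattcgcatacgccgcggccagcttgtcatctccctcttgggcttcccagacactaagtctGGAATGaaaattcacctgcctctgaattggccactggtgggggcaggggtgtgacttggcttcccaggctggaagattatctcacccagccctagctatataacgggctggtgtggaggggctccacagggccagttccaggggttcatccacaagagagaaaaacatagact
Acat2 (chr17:12960676-12960975, minus strand, CACCCCAC starting at -181): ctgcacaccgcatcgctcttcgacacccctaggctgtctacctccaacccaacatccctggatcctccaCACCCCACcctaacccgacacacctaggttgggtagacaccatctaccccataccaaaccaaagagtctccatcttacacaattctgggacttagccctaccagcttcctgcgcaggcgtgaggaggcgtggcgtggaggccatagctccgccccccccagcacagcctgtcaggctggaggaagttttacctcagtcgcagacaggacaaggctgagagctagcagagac
Car9 and Ankrd37 show the core of the hypoxia response element, Ankrd1 the TEAD motif and Acat2 the core of a sterol response element. ACGTG was present in 22 of the 28 glycolysis and hypoxia genes with a promoter in the table (78.6%), against 30.2% of 8632 tested genes and 21.8% of 27025 symbols. GGAATG was present in 11 of 21 YAP/TEAD targets (52.4%) against 14.2% of tested genes. CACCCCAC was present in 2 of 17 cholesterol genes (11.8%) against 3.77%. Other motifs were searched as well, and most members of their lists lacked them. The CArG box, A or T letters between CC and GG, was in 2 of 27 immediate early genes (7.41%) against 1.49%. The HNF4 motif AAAGTCCA was in 1 of 19 brush border genes (5.26%) against 1.24%. The E2F motif TTTGGCGC was in 6 of 34 S phase genes (17.6%) against 1.19%. A match describes the letters only, and no binding was measured.

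Glycolysis and hypoxia genes rose as a group. Of 31 tested members 25 were higher and 0 lower, with a median of 0.62, and against either 2D set the direction was the same, with 27 higher against replicates 1 to 3 and 24 higher and 1 lower against replicates 4 to 6. At an unadjusted p under 0.05 edgeR called 0 members lower, and DESeq2 0. Car9, the carbonic anhydrase induced by low oxygen, was at 28.996, 22.3 and 26.6 CPM in 2D replicates 1 to 3, 13.2, 18.2 and 20.02 CPM in 2D replicates 4 to 6 and 57.95, 58.02, 59.8, 58.2 and 97.2 CPM in day 13 replicates 1 to 5. Day 13 replicate 5 stood above the other 4, and all 5 were above 2D (log2 fold change 1.68 ± 0.20, edgeR adjusted p = 2.82e-07). Ankrd37, another target of the hypoxia-inducible factor, was at 73.03, 57.2 and 61.1 CPM in 2D replicates 1 to 3, 32.4, 32.6 and 41.8 CPM in 2D replicates 4 to 6 and 134, 131, 123, 157 and 175 CPM in day 13 replicates 1 to 5. Its increase was 1.597 ± 0.17 (edgeR adjusted p = 5.97e-08), and at day 7 it was at 25.8 ± 5.101 CPM. Hk2, the inducible hexokinase, rose from 46.7 ± 2.097 CPM in 2D replicates 1 to 3 and 89.4 ± 15.8 CPM in replicates 4 to 6 to 163 ± 18.4 CPM at day 13. Pfkp, a phosphofructokinase, rose from 64.6 ± 11.3 to 159 ± 24.3 CPM (1.27 ± 0.12). Along the path Slc2a1, Gpi1, Tpi1, Pgk1, Pgam1, Pkm and Ldha were called higher, as were Vegfa, Pdk1, Egln3 and Slc16a3. Gapdh was tested and was not called.

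Immediate early genes, which cells transcribe within minutes of a growth signal or of handling, were higher as well. Of 33 tested members 25 were higher and 4 lower (median 0.93), and the count was 22 higher and 4 lower against 2D replicates 1 to 3 and 25 higher and 2 lower against replicates 4 to 6. Their summed level was 2558 to 3051 CPM in the 2D libraries and 6156 to 6481 CPM at day 13. Fos was at 239, 211 and 236 CPM in 2D replicates 1 to 3, 103, 77.3 and 117 CPM in 2D replicates 4 to 6 and 685, 763, 694, 789 and 661 CPM in day 13 replicates 1 to 5. The groups were well apart (log2 fold change 2.16 ± 0.22, edgeR adjusted p = 2.85e-08). Fosb rose from 23.8 ± 2.91 CPM in 2D replicates 1 to 3 and 8.66 ± 3.299 CPM in replicates 4 to 6 to 75.03 ± 10.5 CPM at day 13. Dusp1, a phosphatase that ends MAP kinase signals, rose from 62.6 ± 14.4 CPM in 2D replicates 1 to 3 and 31.6 ± 0.7 CPM in replicates 4 to 6 to 205 ± 24.5 CPM at day 13. At day 7, also after collagenase, Fos was at 432 ± 123 CPM and Dusp1 at 108 ± 13.6 CPM, between 2D and day 13. Fosb was at 94.8 ± 47.2 CPM at day 7, with a mean above that of day 13. The members that fell were Fosl1, Ier5, Ier5l and Myc. The organoids but not the 2D cells had been digested at 37 °C, so that culture and digestion cannot be told apart for these genes.

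Of 28 p53 targets 6 were higher and 9 lower (median -0.16). Cdkn1a, the inhibitor of cyclin-dependent kinases, rose from 197 ± 12.4 to 367 ± 69.003 CPM (log2 fold change 0.897 ± 0.11, edgeR adjusted p = 7.62e-07) and was at 1005 ± 153 CPM in the second batch. Plk3 rose from 19.8 ± 1.37 CPM in 2D replicates 1 to 3 and 12.8 ± 2.41 CPM in replicates 4 to 6 to 32.1 ± 3.97 CPM at day 13. Trp53inp1 fell from 30.1 ± 8.53 CPM in 2D replicates 1 to 3 and 14.9 ± 1.93 CPM in replicates 4 to 6 to 10.7 ± 2.19 CPM at day 13, with overlap between the groups, and was not called against replicates 4 to 6 alone (log2 fold change -0.46, edgeR adjusted p = 0.101).

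Genes of DNA replication and mitosis were lower. Of 43 S phase genes 37 were lower and 0 higher (median -0.62), and of 47 genes of G2 and mitosis 35 were lower and 0 higher (median -0.65). In bulk RNA, fewer dividing cells and less RNA per dividing cell cannot be told apart. The count depended on the 2D set and on the scaling. Against replicates 1 to 3 15 S phase and 16 mitotic genes were lower (medians -0.18 and -0.17), and against replicates 4 to 6 38 and 41 (medians -0.79 and -0.86). When library totals alone set the scale, 18 genes of either list were lower. With day 13 replicates 1 to 3 alone, a fit added after the data had been seen, 21 and 23 were lower. In the comparison with all 6 2D libraries 0 members of either list were higher at an unadjusted p under 0.05 by edgeR, and 0 by DESeq2. Of the mitotic genes 2 were higher against replicates 1 to 3.

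Ccne2, cyclin E2, which opens S phase, fell from 30.9 ± 9.28 to 11.2 ± 3.15 CPM (log2 fold change -1.43 ± 0.20, edgeR adjusted p = 3.64e-06). Tyms, thymidylate synthase, was at 113, 104 and 108 CPM in 2D replicates 1 to 3, 84.5, 79.7 and 89.5 CPM in 2D replicates 4 to 6 and 55.6, 47.95, 51.2, 48.8 and 57.8 CPM in day 13 replicates 1 to 5. It fell by 0.87 on the log2 scale (edgeR adjusted p = 3.01e-07). Mcm7, a part of the replicative helicase, fell from 69.8 ± 16.2 to 39.99 ± 9.54 CPM, and its groups overlapped. Gins2, a partner of that helicase, fell from 54.4 ± 12.1 to 28.04 ± 6.16 CPM. Cks1b, which serves the cyclin-dependent kinases, was at 342, 299 and 351 CPM in 2D replicates 1 to 3, 229, 228 and 253 CPM in 2D replicates 4 to 6 and 134, 147, 122, 121 and 95.6 CPM in day 13 replicates 1 to 5. All organoid libraries were below all 2D libraries (log2 fold change -1.19 ± 0.12, edgeR adjusted p = 3.16e-08). Its relative Cks2 fell from 37.2 ± 6.38 CPM in 2D replicates 1 to 3 and 23.6 ± 3.73 CPM in replicates 4 to 6 to 11.3 ± 3.04 CPM at day 13. Ndc80, of the kinetochore, fell from 25.7 ± 2.21 to 13.98 ± 3.52 CPM, and Mad2l1, of the spindle checkpoint, fell from 73.9 ± 6.27 to 39.9 ± 7.01 CPM. At day 7 the levels of Cks1b, Tyms and Mcm7 were 336 ± 24.8, 139.8 ± 5.4998 and 123 ± 23.7 CPM, above the 2D means, and in the second batch of day 13 they were 84.1 ± 4.94, 40.3 ± 2.88 and 30.1 ± 2.28 CPM.

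Of 49 genes of Myc and ribosome biogenesis 31 were lower and 3 higher (median -0.40), with 23 lower against 2D replicates 1 to 3 and 39 lower against replicates 4 to 6. When library totals alone set the scale, 17 were lower. Npm1, a nucleolar chaperone, fell from 914 ± 117 to 455 ± 38.7 CPM (log2 fold change -1.004 ± 0.09, edgeR adjusted p = 9.75e-09). Nop10, of the pseudouridylation complex, fell from 794 ± 55.2 CPM in 2D replicates 1 to 3 and 397 ± 23.9 CPM in replicates 4 to 6 to 272 ± 20.8 CPM at day 13. Hspe1, the mitochondrial cochaperonin, fell from 1248 ± 176 CPM in 2D replicates 1 to 3 and 380.3 ± 18.5 CPM in replicates 4 to 6 to 258 ± 27.9 CPM at day 13. Mxd1, which opposes Myc at its sites, rose from 13.5 ± 3.42 to 59.7 ± 23.2 CPM (log2 fold change 2.15 ± 0.22, edgeR adjusted p = 4.85e-08). Myc itself was among the genes lower.

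Genes of cholesterol synthesis were mostly lower, 18 lower and 1 higher of 25 (median -0.63). Here 2D replicates 4 to 6 were the higher set. Against them 23 of the 25 were lower (median -0.84), and against replicates 1 to 3 9 were lower and 4 higher (median -0.19). Acat2, which makes acetoacetyl-CoA for the path, was at 142, 123 and 138 CPM in 2D replicates 1 to 3, 254, 258 and 238 CPM in 2D replicates 4 to 6 and 81.6, 84.4, 82.8, 60.9 and 66.2 CPM in day 13 replicates 1 to 5. Either set was above the organoids (log2 fold change -1.37 ± 0.17, edgeR adjusted p = 7.29e-07). Insig1, the sterol sensor of the endoplasmic reticulum, fell from 138 ± 1.83 CPM in 2D replicates 1 to 3 and 236 ± 4.096 CPM in replicates 4 to 6 to 91.4 ± 3.74 CPM at day 13. Mvd, a decarboxylase of the path, fell from 48.97 ± 4.73 CPM in 2D replicates 1 to 3 and 108 ± 13.2 CPM in replicates 4 to 6 to 40.5 ± 5.26 CPM at day 13. Its groups overlapped, and its change against replicates 1 to 3 alone was -0.29 (edgeR adjusted p = 0.121). The higher member was Srebf1.

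Of 42 genes of the unfolded protein and integrated stress responses 9 were higher and 16 lower (median -0.09). The lower members were mostly of amino acid supply. Phgdh, the first enzyme of serine synthesis, was at 135, 138 and 148 CPM in 2D replicates 1 to 3, 103, 96.98 and 95.97 CPM in 2D replicates 4 to 6 and 38.02, 35.01, 31.6, 28.2 and 22.6 CPM in day 13 replicates 1 to 5. It fell by 1.92 on the log2 scale (edgeR adjusted p = 3.33e-10), and at day 7 it was at 174 ± 20.6 CPM. Psat1, the next enzyme, fell from 140.5 ± 22.96 to 66.6 ± 10.98 CPM (log2 fold change -1.06 ± 0.12, edgeR adjusted p = 2.72e-07). Trib3 fell from 57.6 ± 7.096 CPM in 2D replicates 1 to 3 and 23.4 ± 3.93 CPM in replicates 4 to 6 to 19.02 ± 2.12 CPM at day 13 and Chac1 from 36.5 ± 8.22 CPM in 2D replicates 1 to 3 and 17.5 ± 2.71 CPM in replicates 4 to 6 to 13.3 ± 1.96 CPM at day 13, and neither was called against replicates 4 to 6 alone (edgeR adjusted p = 0.268 and 0.198). The 9 higher members included the chaperones and the degradation genes of the endoplasmic reticulum Pdia4, Dnajb9, Dnajb11, Herpud1 and Sel1l.

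YAP/TEAD targets, genes switched on by spreading and tension, were more often lower, 14 lower and 6 higher of 30 (median -0.38), with 15 lower and 4 higher against 2D replicates 1 to 3 and 12 lower and 6 higher against replicates 4 to 6. Ccn2, a matricellular growth factor and a standard readout of YAP, was at 117, 182 and 143 CPM in 2D replicates 1 to 3, 116, 102 and 102 CPM in 2D replicates 4 to 6 and 19.9, 24.5, 17.2, 19.7 and 11.6 CPM in day 13 replicates 1 to 5. The highest organoid library was far below the lowest 2D library (log2 fold change -2.75 ± 0.19, edgeR adjusted p = 4.73e-11), and at day 7 Ccn2 was at 29.2 ± 2.66 CPM. Ankrd1, a nuclear ankyrin repeat protein whose promoter is shown above, was at 136, 116 and 128 CPM in 2D replicates 1 to 3, 75.3, 68.2 and 82.4 CPM in 2D replicates 4 to 6 and 32.5, 45.6, 34.5, 45.2 and 25.7 CPM in day 13 replicates 1 to 5. It fell by 1.42 on the log2 scale (edgeR adjusted p = 3.28e-07), whereas at day 7 it stood at 103 ± 11.03 CPM. Gadd45a fell from 181 ± 14.9 CPM in 2D replicates 1 to 3 and 74.9 ± 15.8 CPM in replicates 4 to 6 to 56.4 ± 8.79 CPM at day 13, with overlap between the groups. Foxf2, a forkhead factor, rose from 62.7 ± 14.2 to 179 ± 39.4 CPM (log2 fold change 1.48 ± 0.15, edgeR adjusted p = 3.22e-08). In the second batch of day 13 it was at 70.2 ± 5.51 CPM, within the range of the 2D libraries (46.2 to 78.3 CPM).

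Of 25 TGF-beta signalling genes 9 were higher and 6 lower, with a median of -0.16. It was 7 higher and 9 lower against 2D replicates 1 to 3 and 7 higher and 5 lower against replicates 4 to 6, with medians of 0.06 and 0.07. Id1 and Id3 block basic helix-loop-helix factors and answer to BMP signals. Id1 rose from 129 ± 27.98 to 392 ± 27.4 CPM (log2 fold change 1.62 ± 0.13, edgeR adjusted p = 3.33e-10), and Id3 rose from 138 ± 10.7 CPM in 2D replicates 1 to 3 and 69.96 ± 7.94 CPM in replicates 4 to 6 to 232 ± 4.401 CPM at day 13. Smad6, an inhibitor of the path, rose from 14.7 ± 1.803 CPM in 2D replicates 1 to 3 and 25.7 ± 5.47 CPM in replicates 4 to 6 to 36.8 ± 3.22 CPM at day 13. Of 24 genes of the EGF family, ErbB receptors and Met 9 were higher and 6 lower (median 0.01). Erbb3 rose from 9.84 ± 2.697 CPM in 2D replicates 1 to 3 and 16.2 ± 1.53 CPM in replicates 4 to 6 to 44.5 ± 16.03 CPM at day 13. Hbegf, a ligand of the EGF receptor, rose from 152 ± 14.9 to 296 ± 30.4 CPM (0.96 ± 0.13). Spry4, a feedback inhibitor, rose from 7.34 ± 3.04 CPM in 2D replicates 1 to 3 and 16.04 ± 3.84 CPM in replicates 4 to 6 to 27.6 ± 7.897 CPM at day 13, and Etv4, a factor downstream of ERK, fell from 19.02 ± 3.69 CPM in 2D replicates 1 to 3 and 31.9 ± 3.09 CPM in replicates 4 to 6 to 14.7 ± 6.07 CPM at day 13, both with overlap. Against replicates 1 to 3 alone Etv4 was not called (edgeR adjusted p = 0.301).

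Chemokines and cytokines were more often lower, 11 lower and 2 higher of 21 (median -0.61), with 12 lower and 5 higher against 2D replicates 1 to 3 and 6 lower and 3 higher against replicates 4 to 6. Cxcl15 was at 69.8, 72.8 and 75.9 CPM in 2D replicates 1 to 3, 9.13, 7.68 and 14.1 CPM in 2D replicates 4 to 6 and 3.71, 1.44, 1.91, 2.24 and 2.101 CPM in day 13 replicates 1 to 5, close to the limit set by 3 counts in the organoids. The fall was -4.97 against replicates 1 to 3 and -2.08 against replicates 4 to 6. Cxcl16, a membrane-bound chemokine, fell from 162 ± 16.03 CPM in 2D replicates 1 to 3 and 96.4 ± 3.505 CPM in replicates 4 to 6 to 38.5 ± 7.09 CPM at day 13 (log2 fold change -1.71 ± 0.17, edgeR adjusted p = 1.40e-08). Ccl2, which draws monocytes, fell from 53.8 ± 2.95 CPM in 2D replicates 1 to 3 and 22.3 ± 0.561 CPM in replicates 4 to 6 to 11.4 ± 4.71 CPM at day 13. Il1a, interleukin 1 alpha, rose from 6.12 ± 1.53 to 36.03 ± 7.78 CPM (log2 fold change 2.61 ± 0.20, edgeR adjusted p = 3.47e-10). Of 29 interferon-stimulated and MHC class I genes 6 were higher and 9 lower (median -0.04), with 5 higher and 11 lower against 2D replicates 1 to 3 and 6 higher and 4 lower against replicates 4 to 6. Oasl1 rose from 34.7 ± 3.82 to 98.5 ± 14.6 CPM (1.496 ± 0.11) and H2-T23 from 49.1 ± 7.13 to 91.8 ± 10.5 CPM (0.89 ± 0.11). In the second batch of day 13 Oasl1 was at 130 ± 10.8 CPM, but H2-T23 was at 31.8 ± 3.61 CPM, under 2D. Bst2, tetherin, fell from 117 ± 9.87 CPM in 2D replicates 1 to 3 and 76.4 ± 5.48 CPM in replicates 4 to 6 to 54.1 ± 2.101 CPM at day 13. Ifit1 fell from 38.9 ± 8.49 CPM in 2D replicates 1 to 3 and 17.3 ± 8.08 CPM in replicates 4 to 6 to 15.4 ± 4.61 CPM at day 13, with overlap, and was not called against replicates 4 to 6 alone (edgeR adjusted p = 0.855), nor without 2D replicate 1, 2D replicate 2 or day 13 replicate 5 (edgeR adjusted p = 0.121, 0.175 and 0.142).

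Of 12 genes of foetal and oncofetal states 8 were lower and 2 higher (median -0.64). Afp, alpha-fetoprotein, fell from 55.5 ± 11.5 CPM in 2D replicates 1 to 3 and 27.1 ± 5.62 CPM in replicates 4 to 6 to 10.8 ± 2.94 CPM at day 13. Ly6a, Sca-1, fell from 452 ± 45.5 CPM in 2D replicates 1 to 3 and 231 ± 27.3 CPM in replicates 4 to 6 to 114 ± 16.5 CPM at day 13. Hmga1, a chromatin protein of growing cells, fell from 59.003 ± 5.61 to 32.1 ± 8.03 CPM (-0.88 ± 0.14), and at day 7 it was at 207 ± 12.7 CPM. Anxa10, an annexin of gastric epithelium, rose from 95.8 ± 15.3 to 205 ± 57.6 CPM (1.11 ± 0.15). Of 34 lysosome and autophagy genes 5 were higher and 10 lower (median -0.09), and 3 were higher without 2D replicate 1, 2 or 3. Against replicates 1 to 3 alone 12 were higher and 11 lower, and against replicates 4 to 6 3 were higher and 9 lower. Ctsl fell from 527 ± 115 to 286 ± 38.7 CPM and Npc2 from 476 ± 103 to 272 ± 17.5 CPM. Map1lc3a fell from 75.7 ± 5.21 CPM in 2D replicates 1 to 3 and 41.7 ± 0.407 CPM in replicates 4 to 6 to 32.7 ± 3.403 CPM at day 13 and Bnip3, a mitophagy receptor induced by hypoxia, rose from 274 ± 15.8 CPM in 2D replicates 1 to 3 and 152 ± 4.17 CPM in replicates 4 to 6 to 359 ± 48.7 CPM at day 13.

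The largest decreases were mostly against 2D replicates 1 to 3. Pdzk1ip1, a small membrane protein of carcinomas, was at 289, 292 and 356 CPM in 2D replicates 1 to 3, 57.1, 65.8 and 72.4 CPM in 2D replicates 4 to 6 and 11.6, 14.9, 14.4, 10.7 and 12.6 CPM in day 13 replicates 1 to 5. It fell by 4.62 on the log2 scale against replicates 1 to 3 and by 2.30 against replicates 4 to 6. Rbp4, the retinol carrier of blood, was at 193, 187 and 185 CPM in 2D replicates 1 to 3, 42.01, 35.05 and 46.5 CPM in 2D replicates 4 to 6 and 11.1, 9.59, 13.4, 8.06 and 9.98 CPM in day 13 replicates 1 to 5. The fall was by 4.19 and by 1.94. Ptgds, a prostaglandin D synthase, fell from 55.7 ± 4.71 CPM in 2D replicates 1 to 3 and 9.91 ± 1.19 CPM in replicates 4 to 6 to 1.39 ± 1.27 CPM at day 13. Slfn2, a Schlafen protein, fell from 133 ± 15.1 CPM in 2D replicates 1 to 3 and 44.5 ± 2.99 CPM in replicates 4 to 6 to 7.27 ± 2.59 CPM at day 13. Spata24 fell from 32.5 ± 6.04 CPM in 2D replicates 1 to 3 and 9.56 ± 1.42 CPM in replicates 4 to 6 to 2.72 ± 1.21 CPM at day 13. Against replicates 4 to 6 alone all 5 were still called lower, the last by 1.73 on the log2 scale (edgeR adjusted p = 7.43e-05).

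**Figure D5:**
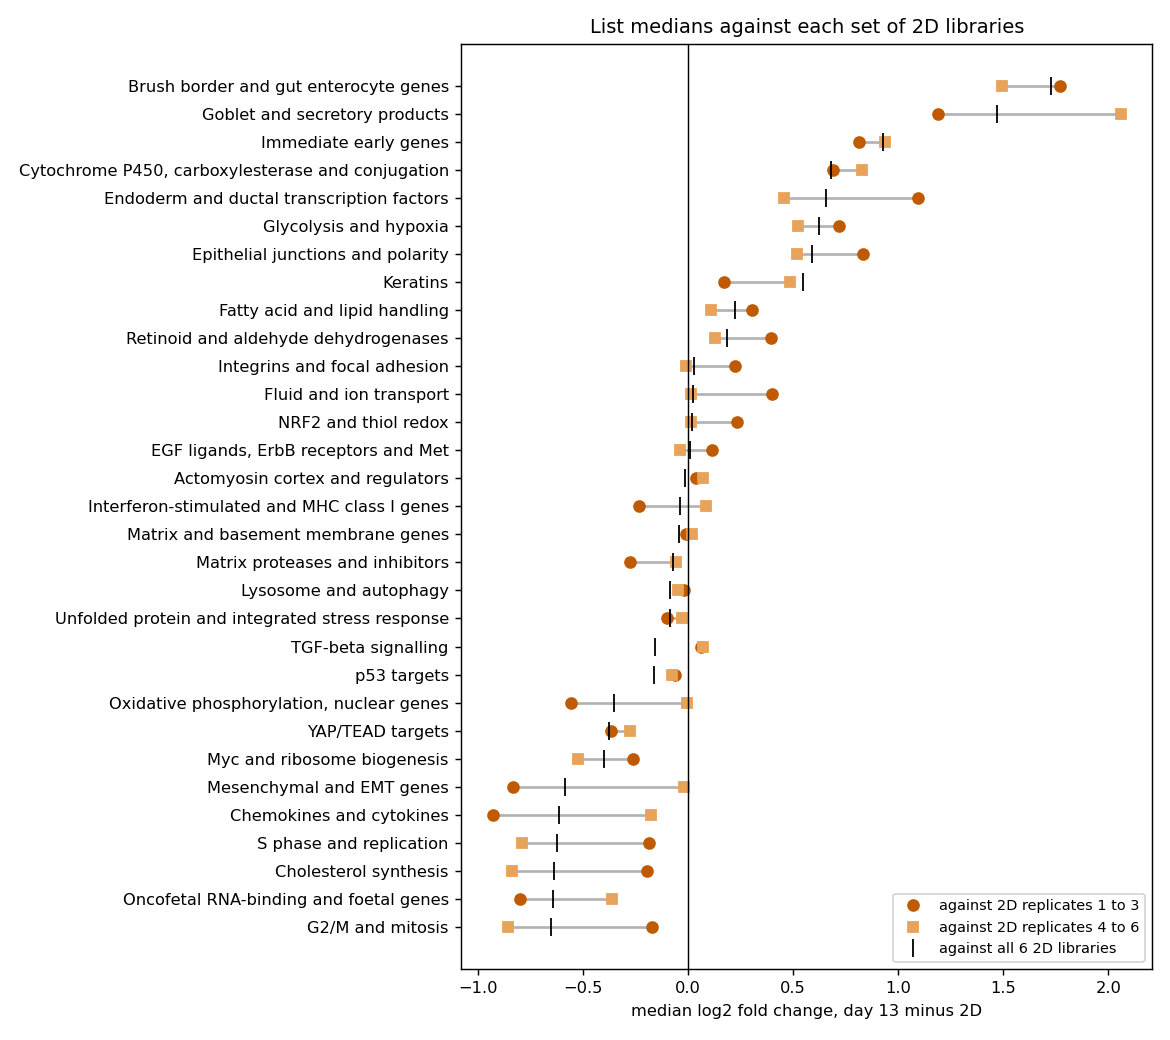
Median log2 fold change, day 13 minus 2D, of the tested members of 31 gene lists (x axis) against 2D replicates 1 to 3 (circles), 2D replicates 4 to 6 (squares) and all 6 (bars). The brush border, goblet, immediate early and glycolysis lists lie above 0 against either set, while oxidative phosphorylation and mesenchymal genes reach 0 against replicates 4 to 6.

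Changes in transcripts of the ribosome and of respiration depended on the 2D set. Of 78 tested ribosomal protein genes, a group chosen after its values were seen, 75 were lower, with a median of -1.56 against 2D replicates 1 to 3 and -0.56 against replicates 4 to 6, where 66 were lower. Rps18 was at 17996, 18552 and 19578 CPM in 2D replicates 1 to 3, 4568, 4373 and 5384 CPM in 2D replicates 4 to 6 and 3181, 3257, 3485, 2569 and 2458 CPM in day 13 replicates 1 to 5. It fell by 2.67 on the log2 scale against replicates 1 to 3 and by 0.64 against replicates 4 to 6. Rpl17 fell from 15499.8 ± 1744 CPM in 2D replicates 1 to 3 and 3244 ± 395 CPM in replicates 4 to 6 to 2153 ± 245 CPM at day 13, and Rps14 from 14447 ± 852 CPM in 2D replicates 1 to 3 and 3963 ± 423 CPM in replicates 4 to 6 to 2664 ± 87.6 CPM at day 13. Rpl17 and other ribosomal protein genes have near-identical processed pseudogenes, so that their counts are uncertain. Of 280 tested genes annotated as processed or unprocessed pseudogenes 212 were lower and 5 higher, and against replicates 4 to 6 92 were lower and 6 higher. Gm3699 and Gm4342 were among the 10 largest decreases, from 129.97 ± 11.3 CPM in 2D replicates 1 to 3 and 24.02 ± 1.79 CPM in replicates 4 to 6 to 10.8 ± 1.33 CPM at day 13 and from 87.1 ± 25.3 CPM in 2D replicates 1 to 3 and 14.9 ± 0.682 CPM in replicates 4 to 6 to 7.41 ± 1.52 CPM at day 13. Zfas1, a noncoding RNA that hosts small nucleolar RNAs, fell from 1119.98 ± 169 CPM in 2D replicates 1 to 3 and 129 ± 7.497 CPM in replicates 4 to 6 to 96.8 ± 15.4 CPM at day 13, by 3.55 and by 0.38 on the log2 scale against the 2 sets.

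Of 52 nuclear genes of oxidative phosphorylation 30 were lower and 2 higher (median -0.35), and 5 were higher without 2D replicate 4 or 5. Against replicates 1 to 3 35 were lower and 6 higher, and against replicates 4 to 6 12 were lower and 2 higher, with a median near 0 (-0.0041). Atp5e, a subunit of the ATP synthase, was at 3121, 3705 and 4352 CPM in 2D replicates 1 to 3, 616, 584 and 729.5 CPM in 2D replicates 4 to 6 and 561, 598, 576, 661 and 614 CPM in day 13 replicates 1 to 5. Replicates 4 to 6 lay within the range of the organoids or close to it (-0.06, edgeR adjusted p = 0.661, against that set). Uqcrh fell from 1809 ± 126 CPM in 2D replicates 1 to 3 and 426 ± 24.005 CPM in replicates 4 to 6 to 402 ± 23.6 CPM at day 13 and was likewise not called against replicates 4 to 6 (-0.05, edgeR adjusted p = 0.698). Ndufa4 fell from 2468 ± 441 CPM in 2D replicates 1 to 3 and 747 ± 47.7 CPM in replicates 4 to 6 to 595 ± 54.5 CPM at day 13, and Ndufs4 from 595 ± 66.3 CPM in 2D replicates 1 to 3 and 203 ± 8.15 CPM in replicates 4 to 6 to 176 ± 7.72 CPM at day 13. The 8 mitochondrially encoded protein genes, also chosen after their values were seen, turned with the set, with 8 lower against replicates 1 to 3 (median -0.80) and 7 higher against replicates 4 to 6 (median 0.70). The mitochondrial ribosomal RNA mt-Rnr2 was at 32179.9, 28664 and 32214 CPM in 2D replicates 1 to 3, 10689, 10933 and 10531 CPM in 2D replicates 4 to 6 and 10312, 13008, 13425, 17155 and 17149 CPM in day 13 replicates 1 to 5. It fell by 1.14 on the log2 scale against replicates 1 to 3 and was higher by 0.44 against replicates 4 to 6 (edgeR adjusted p = 0.00754). Over all 6 2D libraries its change was -0.55 ± 0.26 (edgeR adjusted p = 0.0851), and it was not called without any single one of 2D replicates 1 to 3 (edgeR adjusted p = 0.237, 0.1999 and 0.245) or day 13 replicates 1 to 3 (0.211, 0.160 and 0.154). The ribosomal RNA gene CT010467.1, with the largest loss in mean CPM over all 6 2D libraries, was at 31629 ± 2760.2 CPM in 2D replicates 1 to 3, 10306 ± 816 CPM in replicates 4 to 6 and 11028 ± 1277 CPM at day 13. It fell against replicates 1 to 3 (log2 fold change -1.54), and its change against replicates 4 to 6 was 0.13 (edgeR adjusted p = 0.471).

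Most defining markers of other cells of the pancreas were near 0 in all 11 libraries. Of 4 endocrine, 5 acinar, 8 endothelial, 9 leukocyte and 12 fibroblast markers in the table, Ptprc, Pecam1, Cdh5, Kdr, Thy1, Lum, Cpb1 and Ins1, which define leukocytes, endothelium, fibroblasts, acini and beta cells, had at most 3 counts in any library. Sums in CPM cover only the markers that passed the filter on low counts. For fibroblasts these were 3 of the 12, Col1a2, Col3a1 and Dcn. Together they were at 59.1 to 175 CPM in 2D and 48.7 to 98.1 CPM at day 13. All 12 together had 120 to 176 counts per library in 2D and 109 to 229 at day 13. Pdgfra had at most 4 counts and Col1a1 at most 7. Col1a2 was at 87.1 ± 16.6 CPM in 2D replicates 1 to 3, 35.04 ± 3.29 CPM in replicates 4 to 6 and 35.1 ± 12.6 CPM at day 13, with overlap. It fell against replicates 1 to 3 (log2 fold change -1.31), and its change against replicates 4 to 6 was 0.05 (edgeR adjusted p = 0.893). Over all 6 2D libraries it was called lower, but not without 2D replicate 1 or 3 or day 13 replicate 1 or 3 (edgeR adjusted p = 0.138, 0.144, 0.117 and 0.109). The 2 leukocyte markers that passed the filter, Cd14 and Cd68, were together at 178 to 222 CPM in 2D and 80.6 to 119 CPM at day 13. Cd14 was called lower (log2 fold change -1.14 ± 0.13, edgeR adjusted p = 1.95e-07) and Cd68 higher. Only 1 endothelial marker, Flt1, and 1 acinar marker, Cela1, passed the filter. Flt1 was at 4.80 to 25.6 CPM in 2D and 3.15 to 13.4 CPM at day 13. Cela1 was at 4.57 to 20.4 and 7.36 to 11.5 CPM. The endocrine markers had at most 3 counts in all.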

How the data were processed

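The authors prepared 3' end libraries of polyadenylated RNA with UMIs, mapped the reads to the mouse genome GRCm38 and obtained a UMI count per gene from the Drop-seq pipeline v1.0 with GENCODE M25 annotation. The deposited counts are whole UMI counts of 27207 genes in 23 libraries, not normalized or filtered, of which 24507 have a count. No column was left unmapped. Groups were taken from the labels, and no label says whether the 6 2D replicates came from separate cultures. The 11 libraries compared hold 1221451 to 2097989 counts (median 1958905). This depth limits genes under about 3 CPM, where a count of 0 allows 3 counts. No 2 replicates of a group agreed within sampling noise (chi-square per degree of freedom at least 1.246).

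Counts were analysed in R 4.3.3 with edgeR 4.0.16 (TMM, filterByExpr, quasi-likelihood F-test) fitted to all 23 libraries with a group for each of the 6 conditions, and the contrast was collagen day 13 of batch 1 minus 2D. Genes with a Benjamini-Hochberg adjusted p under 0.1 over all 11144 genes tested were called, and none was adjusted over a list alone. CPM were computed on the TMM-scaled library size. Lists were described by counts and medians, without a set test, and several share members, such as Spp1. The members and lists were chosen with earlier results of these data known. Named genes are the 6 chosen genes, the 10 highest and 10 lowest log2 fold changes among called genes without overlap and with at least 20 CPM in the higher group, the 5 called genes with the largest gain and the 5 with the largest loss of mean CPM, up to 4 called members of each list with the largest change and at least 20 CPM, and Krt19, Krt7, Epcam, Cdh1 and Vim, with others 149 in all, of which some are not reported here. Other genes are named only as members called. Replicate numbers are shared between the groups, but same-numbered libraries did not deviate together (r from -0.107 to 0.0649, 0 of 5 pairs over 0.1). The deviations were taken from the mean of all 6 2D libraries and so hold the gap between the 2D sets. The check therefore cannot exclude a pairing, and no block was used in the main fit. Gene positions come from GENCODE M21 on GRCm38, found for 10998 tested genes, and promoters from RefSeq on GRCm38.p6. The code was tested on simulated data. Alternatives were DESeq2 1.42.0, its size factors, library size alone, other filters, a threshold of 0.05, other sets of libraries, a replicate block and each library left out. 2 fits with part of the day 13 libraries were added after the data had been seen.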

Additional observations from a re-analysis of the deposited data

Results flagged for a closer look

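In 8 of 298 groups of named-gene values (each gene in 2D or at day 13) 1 library stood far from the others by Dixon's test, where chance flags about 1 in 20. At day 13 Ildr1 was at 35.2 CPM in replicate 5, with the others at 19.18 to 22.72 CPM. Car9 was at 97.19 CPM in the same library (others 57.95 to 59.82 CPM), and Pparg at 294.7 CPM (others 221.2 to 239.3 CPM). Day 13 replicate 2 was low in Myo1a, at 34.53 CPM (others 40.75 to 42.59 CPM), and in Insig1, at 84.88 CPM (others 92.26 to 94.5 CPM). Il1a was at 22.49 CPM in day 13 replicate 3 (others 36.92 to 41.26 CPM). In 2D, Cdc42ep1 was at 58.16 CPM in replicate 3 (others 97.97 to 118.3 CPM), and Cpt1a at 23.63 CPM in replicate 1 (others 41.4 to 48.01 CPM). Each of these 8 genes kept its call and direction with the library in question left out.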

How the results depend on the processing

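Across 26 alternatives to the fit of 149 named genes, 3792 values kept direction and call, 39 lost the call and 3 reversed. The 6 genes of the opening comparison kept both in all 26. The reversals arose with 2D replicates 4 to 6 alone, in CT010467.1 (0.13), mt-Rnr2 (0.44) and Col1a2 (0.0489), and the cause was not tested. The number of genes called was 5526 and ran from 3931 (at least 10 counts in every library, 7050 genes tested) to 6267 (8 collagen libraries of both batches), with 5273 by DESeq2, 4568 in a fit of the 2 groups alone, 4307 with day 13 replicates 1 to 3 alone and 4844 with day 13 replicates 4 and 5 alone. Scaling by library size alone gave 1692 lower calls in place of 2934. The 1371 calls of at least 2-fold became 554 with at least 10 counts in every library, where fewer genes were tested, 2394 with 2D replicates 1 to 3 alone and 912 with 2D replicates 4 to 6 alone, and the cause was not tested. With each library left out in turn the calls ran from 4950 to 5703, the higher from 2377 to 2828, the lower from 2573 to 2884 and those of at least 2-fold from 1180 to 1568. A block over the replicate numbers gave 5694 calls, 2757 higher and 2937 lower, and 1536 of at least 2-fold. Of the 5526 calls 5193 were kept. No label says whether these numbers pair the samples. Of the lists, goblet and secretory genes had 8 members higher in place of 14 when only the 2 groups were fitted, which tested fewer genes. Depth limits genes under about 3 CPM, such as Cxcl15 and Ptgds at day 13.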
